A study of Mus musculus with 20 samples.

Results

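The proteasome subunit genes are described here in ribosome-bound RNA of mouse hippocampal granule cells over the first postnatal weeks. Members were all gene symbols of the count table made of Psm, a letter from a to g and a number. The rule took 48 of 32245 symbols, and no measured value entered it. The members fell into 8 alpha and 7 beta genes of the 20S core, 4 inducible or tissue-specific beta genes, 6 ATPases and 11 other subunits of the 19S cap, 5 activators with the inhibitor PI31, and 7 assembly chaperones (Psmg1 to Psmg4, Psmd5, Psmd9 and Psmd10). Of these, 46 passed the filter on low counts and were tested among 15373 genes. Psma8, the alpha subunit of the testis, and Psmb11, the beta subunit of the thymus cortex, did not pass, with 21 and 20 counts over all 20 libraries. Neither had more than 4 counts in a library.

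All mice carried Rbp4-Cre and the RiboTag allele. Cre recombination adds an HA tag to RPL22, a ribosomal protein, and anti-HA beads then capture the ribosomes of the cells that express Cre. Poly-adenylated RNA bound to these ribosomes was sequenced at postnatal days 5 (P5, 5 libraries), 7, 10, 15, 21 and 28 (3 libraries each), with no treatment and no other genotype. The cells studied are those in which the Rbp4 driver is or was active, and unselected hippocampal RNA was not analysed here. Libraries carried 3 batch labels. P5 was split over A (3 libraries, with all of P10 and P15) and B (2 libraries, with all of P7), whereas P21 and P28 made up C. The 2 P5 libraries of batch B carry replicate numbers 1 and 3, which batch A also holds at P5. Whether a shared number means the same sample is not stated, and all 5 were fitted as separate libraries. Nothing in the labels ties the libraries of an age to separate animals, and p-values measure the spread between these libraries, which may be technical.

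The proteasome degrades proteins that carry ubiquitin chains. Its barrel-shaped 20S core is built from outer rings of alpha subunits, which gate the entrance, and inner rings of beta subunits, of which Psmb5, Psmb6 and Psmb7 carry the proteolytic sites. The 19S cap binds ubiquitin chains and feeds unfolded substrate into the core with a ring of ATPases. Other activators can dock on the core without ATP, namely PA28 alpha and beta (Psme1 and Psme2), PA28 gamma (Psme3, nuclear) and PA200 (Psme4), and the inducible Psmb8, Psmb9 and Psmb10 replace the constitutive catalytic subunits in the immunoproteasome of interferon-exposed and immune cells. In neurons the proteasome is known for turning over synaptic and cytoskeletal proteins as connections mature.

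Total counts per library lay between 15862204 and 24933541, at which 3 counts correspond to 0.122 to 0.181 CPM (counts per 1000000, with each library total multiplied by its trimmed-mean, or TMM, factor). The members took between 0.352% and 0.452% of a library's counts, lowest in P7. The spectrin genes Sptan1 and Sptbn1 were highest in P7, with a mean log2 CPM of 14.65 to 15.11. Their part in the low share of the members there was not tested. All 6 granule cell markers (Prox1, Calb1, C1ql2, Dsp, Stxbp6 and Rbp4) had counts in every library, with summed levels from 1298 CPM at P7 to 2495 CPM at P21. Markers of other cells were also present: at P15 the microglial list summed to 44.7 to 61.8 CPM, the endothelial list to 43.7 to 60.9, the astrocyte list to 246 to 351 and the interneuron list to 243 to 290. The oligodendrocyte list rose with age, from 80.9 to 99.3 CPM at P5 to 969 to 1707 CPM at P15. For P15 against P5, 6 of 6 of its genes were called higher, beside 31.6% of all genes. Core and cap subunits are expressed in most cell types, and the part of these cells in the results below was not tested. A lower level in such material can stand for fewer cells or for less RNA per cell, which cannot be told apart.

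Per kilobase of annotated exon, the core and cap genes formed a high group and the chaperones and most activators a lower one. At P5 the highest mean was that of Psmb6, a constitutive catalytic beta subunit, with 141.5 ± 8.81 CPM per kb (SD, n = 5), followed by Psmb4 with 122.6 ± 7.29 and Psmb7 with 110.3 ± 9.65. Among the tested alpha genes the means ran from 34.7 for Psma3 to 96.6 for Psma1, a difference on this scale that depends on the exon length used. The 19S genes ran from 24.4 for Psmd11 to 97.3 for Psmd2, a large scaffold of the cap, and Psmb1 (38.5), Psmc6 (35.7) and Psma2 (35.7) lay at the low end of the core and ATPase genes. All 7 chaperones lay between 8.75 (Psmd10) and 15.3 (Psmg1) CPM per kb. Among the activators Psme1 (43.5 ± 4.42) and Psme3 (40.3 ± 3.73) differed by less than their SD, and Psme2 (13.6), Psmf1 (8.88) and Psme4 (7.47) lay lower. Annotated exon length was used for every gene, so a gene with long rarely used exons reads low on this scale.

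At P28 the order had shifted at a few places. Psmc5, an ATPase of the 19S cap, had moved from 81.5 ± 9.47 to 136.5 ± 7.03 CPM per kb and stood beside Psmb4 (137.3 ± 3.94), and Psmb5 had moved from 79.8 ± 2.83 to 114.3 ± 1.5. Psme1 had moved from 43.5 to 28.5 ± 1.72 while Psme3 stood at 49.9 ± 1.92, which set the 2 activators apart by more than their SD. Psme4 was the lowest of the activators at both ages. The plot of level per length shows the classes side by side.

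**Figure D1:**
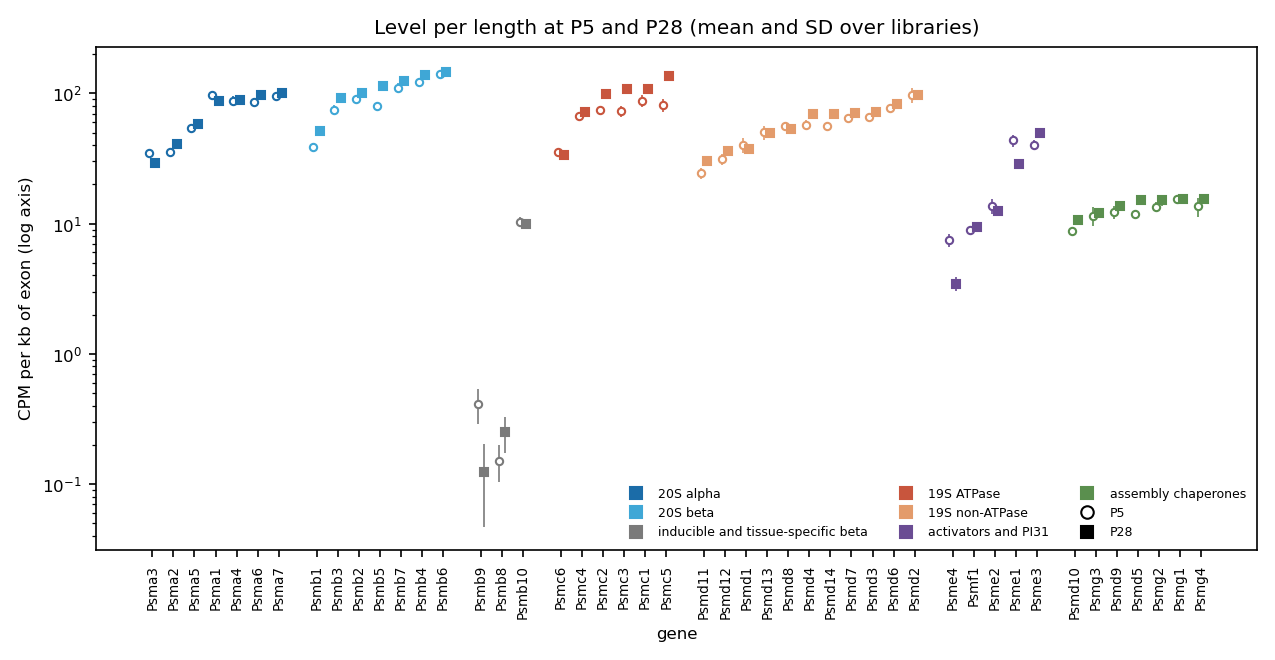
Mean CPM per kb of exon (log axis) of the 46 tested genes at P5 (open circles, n = 5) and P28 (filled squares, n = 3), with the SD over libraries as bars and classes in color. Psmb6 is highest at both ages with 141.5 and 147.0, Psmb8 and Psmb9 lie below 1, and Psme4 drops from 7.47 to 3.45.

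P15 was compared with P5 first, because batch A holds libraries of both ages. With TMM scaling 18 of 31 tested core and cap genes were higher at P15, the ATPases and beta subunits most, while PA28 alpha and beta were lower. Psmc5 was 1.52-fold, Psmc3 1.51-fold and Psmb5 1.41-fold higher, and Psme1 stood at 0.497 of its P5 level. Of the 46 members, 19 were called higher and 4 lower (edgeR quasi-likelihood test, Benjamini-Hochberg adjusted p below 0.05 over 15373 genes). Over all tested genes 63.4% were called in this comparison, 31.6% higher and 31.8% lower. Members called higher were thus a larger share (41.3%) than among all genes, and members called lower a smaller one (8.7%). Their changes were small: the median absolute log2 change was 0.20 for the members and 0.45 for all genes, which were not matched by level.

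The choice of scaling bears on these counts. TMM factors ran from 1.079 to 1.092 for batch A at P5 and from 0.9874 to 1.014 at P15. With library totals in place of TMM factors the median of all genes moved from -0.02 to -0.14, the members called were 9 higher and 10 lower, and 39.2% instead of 49.8% of all called genes were higher. Psma2, Psmb1, Psmb5, Psmb7, Psmc1, Psmc2, Psmc3, Psmc5 and Psme3 were called higher under both scalings, and no member called with TMM factors changed sign. The counts of Sptan1 and Sptbn1, 2 spectrin genes, also moved with age and batch, with a mean log2 CPM of 10.79 to 11.11 at P5 in batch A, 12.78 to 12.98 at P5 in batch B, 14.65 to 15.11 at P7 and 12.16 to 13.84 from P10 on. With that mean as a covariate, 4 members were called higher (Psmc5, Psmc3, Psmb1 and Psma5) and Psme1 lower. Psmb7 (0.40, adjusted p = 0.143, edgeR) and Psmd4 (0.36, adjusted p = 0.129, edgeR) lost the call with a larger change. Others lost it with a smaller one, such as Psme3 (0.19) and Psme4 (-0.086). The share of all genes called in this fit is not given here, so the lower count is not read as a result about the members.

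**Figure D2:**
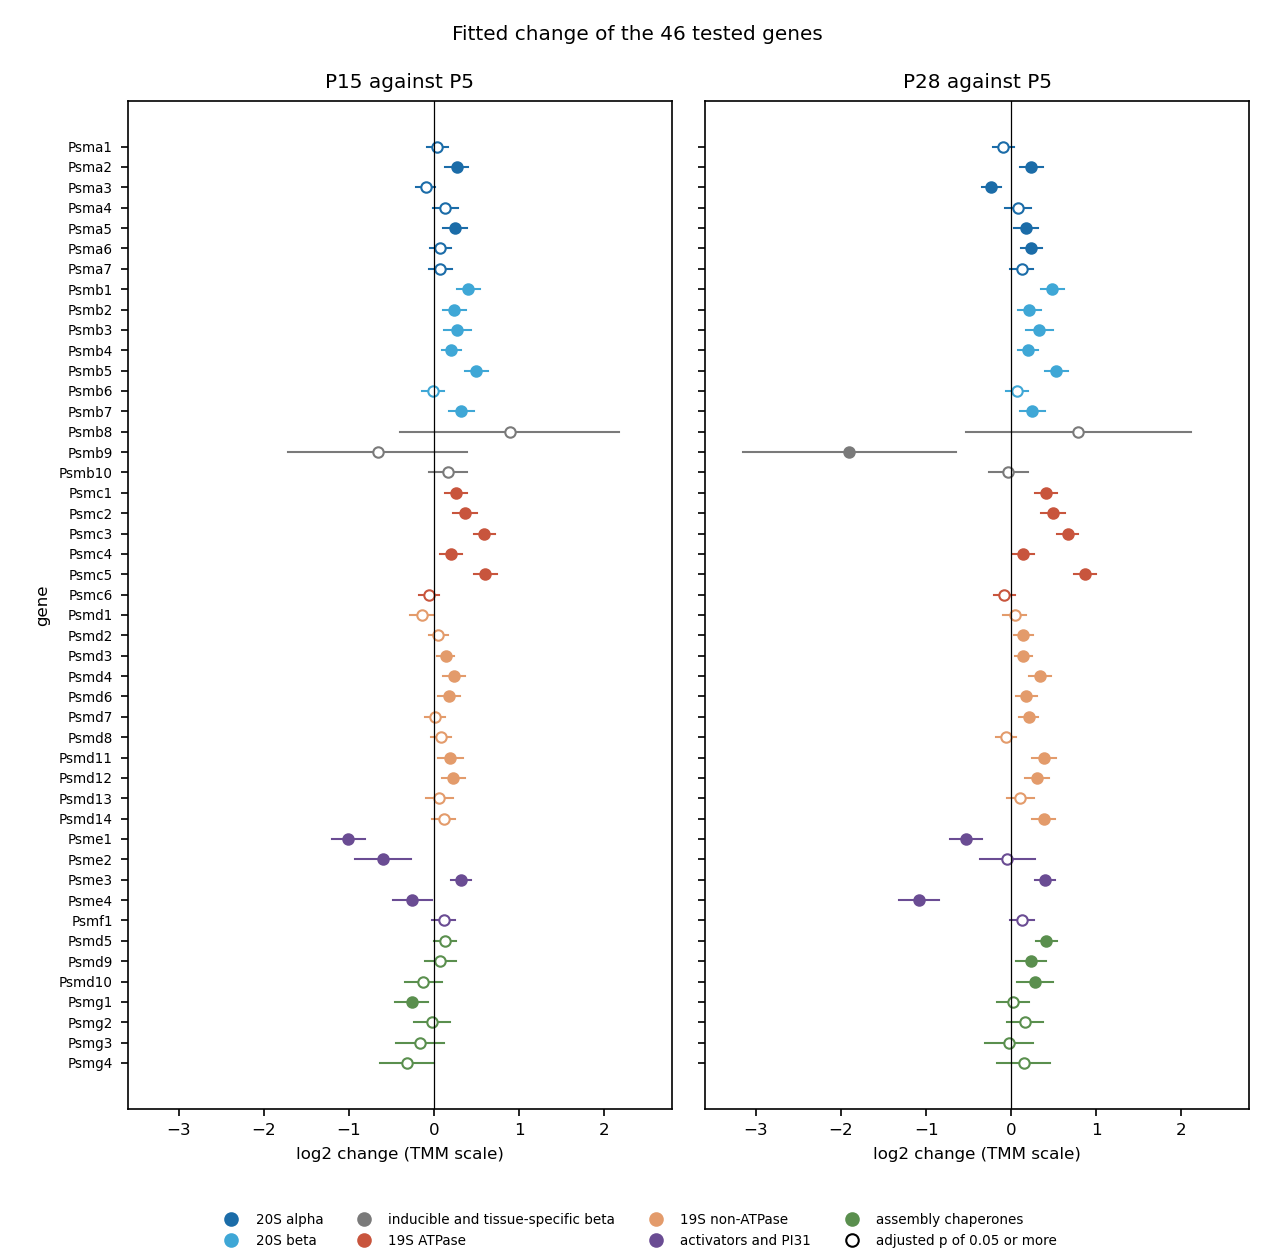
Fitted log2 change of each tested gene for P15 against P5 (left) and P28 against P5 (right), with 95% confidence intervals, classes in color and filled points for an adjusted p below 0.05. On the left 19 points are filled to the right of 0 and 4 to the left, on the right 26 and 4, and Psmb8 and Psmb9 have the widest intervals. With library totals the left panel would hold 9 and 10, the right 13 and 7.

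In the alpha ring, which gates the core, 2 of 7 tested genes were higher at P15, Psma2 and Psma5 (log2 change 0.24), and none was lower. The median change was 0.08, which turned to -0.04 with library totals. At P5, Psma2 stood at 101, 97.7 and 103 CPM in batch A, and the batch B values were 116 and 101 CPM. At P7 Psma2 read 103, 93.7 and 92.4 CPM, at P10 123, 131 and 127, at P15 125, 128 and 111, at P21 113, 124 and 109 and at P28 118, 121 and 115. The 3 P15 values lay above the P5 values of batch A and overlapped those of batch B. The fitted change of Psma2 was 0.27 ± 0.07 (log2 ± SE, adjusted p = 0.000926, edgeR), the largest of the ring. Psma1, the gene of the ring with the smallest change, was at 117.7, 111.6 and 117.8 CPM at P5 in batch A, with 128.5 and 123.9 in batch B. At P7 Psma1 read 119, 109 and 107 CPM, at P10 122, 133 and 126, at P15 123, 123 and 110.4, at P21 111, 109.6 and 99.9 and at P28 108, 114 and 104. P5 and P15 overlapped, and its change was 0.04 ± 0.06 (adjusted p = 0.586, edgeR). Psma3, Psma4, Psma6 and Psma7 lay between -0.10 and 0.13 and were not called.

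In the beta rings 6 of 7 constitutive genes were higher at P15 and none lower, with a median of 0.28 that stayed above 0 with library totals (0.16). Psmb5, which carries the chymotrypsin-like site, changed most. At P5, Psmb5 stood at 71.9, 69.2 and 72.2 CPM in batch A, and the batch B values were 75.7 and 69.9 CPM. At P7 Psmb5 read 75.8, 76.7 and 63.3 CPM, at P10 99.2, 97.4 and 103, at P15 103, 102 and 95.4, at P21 90.4, 98.4 and 86.8 and at P28 104, 102 and 102. All libraries from P10 on lay above all P5 and P7 libraries, with no overlap. The change to P15 was 0.50 ± 0.07 (adjusted p = 4.44e-07, edgeR). Psmb7, the trypsin-like subunit, followed with a smaller rise. At P5, Psmb7 stood at 127, 116 and 124 CPM in batch A, and the batch B values were 146 and 128 CPM. At P7 Psmb7 read 136, 133 and 114 CPM, at P10 149, 159.6 and 165, at P15 159, 156 and 143, at P21 139, 139 and 129.9 and at P28 145, 155 and 135. Its P15 values lay above those of batch A at P5, and the highest P5 library, replicate 1 of batch B, reached into their range. The change was 0.32 ± 0.07 (adjusted p = 0.000342, edgeR).

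Psmb6, which carries the caspase-like site, was the 1 beta gene not called. At P5, Psmb6 stood at 113, 106 and 117 CPM in batch A, and the batch B values were 122 and 106 CPM. At P7 Psmb6 read 103, 105 and 96.9 CPM, at P10 116, 116 and 123, at P15 116, 116 and 101, at P21 107, 106 and 104 and at P28 117, 121 and 114. P5 and P15 overlapped throughout, and the change was -0.01 with a 95% interval from -0.14 to 0.11 (adjusted p = 0.849, edgeR). With library totals Psmb6 was called lower at P15. The P7 libraries lay below all P5 libraries, and over the 6 ages Psmb6 passed the threshold (adjusted p = 0.0402, edgeR). The structural subunits Psmb1 (0.41), Psmb3 (0.28), Psmb2 (0.24) and Psmb4 (0.21) rose with TMM factors. The plot by library sets the 3 catalytic subunits side by side. Psmb5 lay higher in each library from P10 on, Psmb7 lay higher with overlap, and Psmb6 overlapped its P5 range. The difference between their courses was not tested.

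Psmb5 and Psmb6 were set side by side at the level of their upstream sequence, because the letters TGACNNNGC, the core of the antioxidant response element that NRF1 and NRF2 factors bind, occur close to the start of both, while Psmb5 was called higher and Psmb6 was not. The 100 bases shown (RefSeq, GRCm38.p6) end before the annotated transcript, and capitals mark the match. For Psmb5 they lie at chr14:54618023-54618122 on the minus strand, and for Psmb6 at chr11:70525257-70525356 on the plus strand.
Psmb5: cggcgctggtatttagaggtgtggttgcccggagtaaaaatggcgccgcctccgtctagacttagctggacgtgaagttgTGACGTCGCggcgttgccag
Psmb6: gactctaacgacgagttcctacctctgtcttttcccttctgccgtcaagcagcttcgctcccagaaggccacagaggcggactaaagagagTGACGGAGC
The match lies 47 to 39 bases before the RefSeq start in Psmb5 and 9 to 1 bases before it in Psmb6. Upstream sequence was found for 40 of the 48 members. Searched on both strands in the 250 bases before the start, TGACNNNGC occurred in 5 of these 40 (12.5%; also Psmc6, Psmd9 and Psmd12) and in 12.0% of 17492 coding genes. CCAAT, the box bound by NF-Y, occurred in 14 of 40 members (35.0%) and in 39.5% of coding genes. The first share lay near that of coding genes and the second below it, and genes with and without a match were found among those called and those not called.

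**Figure D3:**
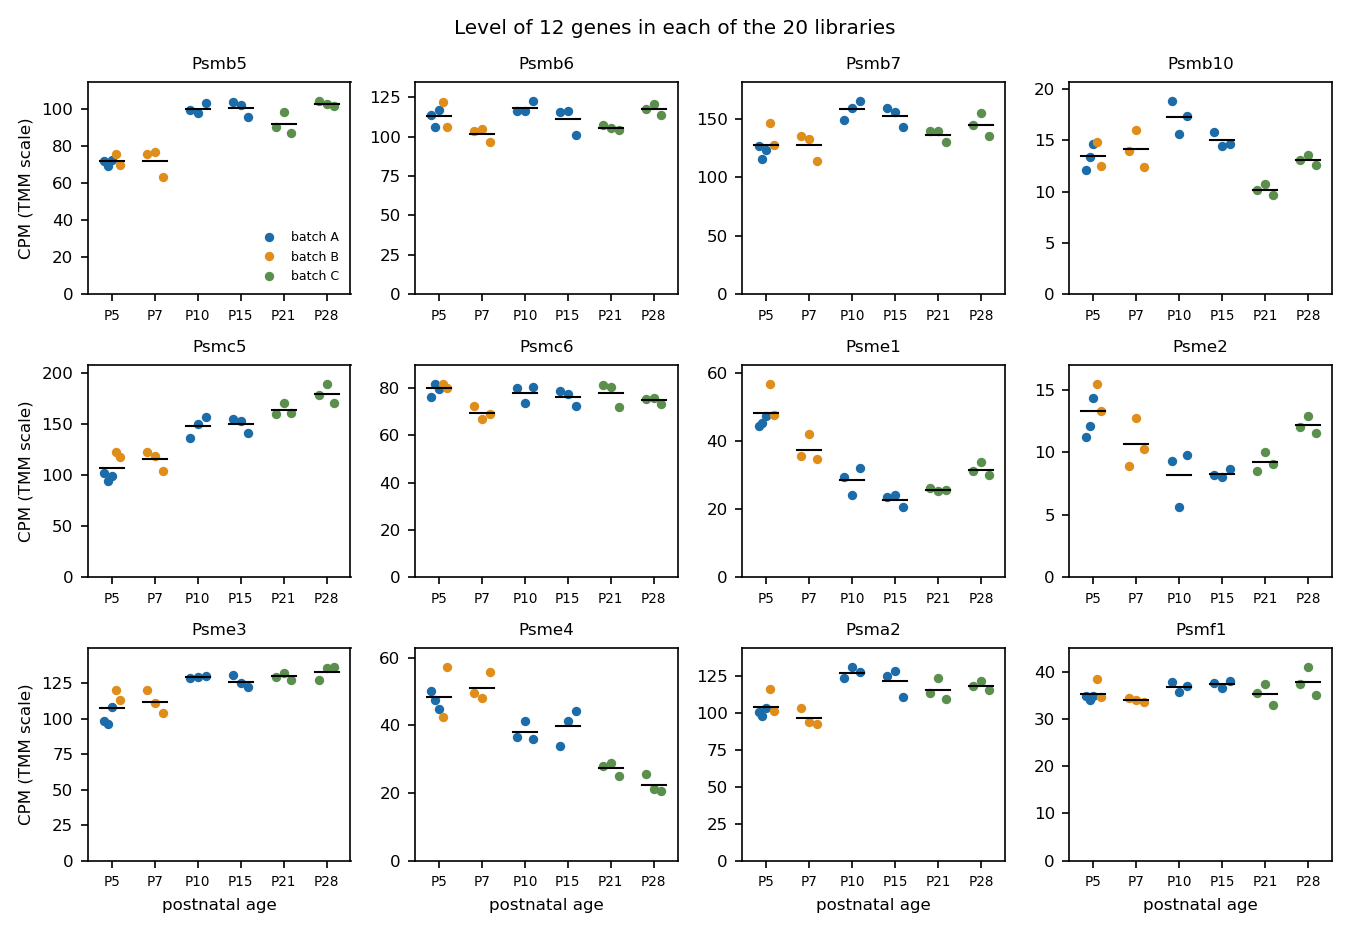
CPM (TMM scale, axes from 0) of 12 members in each library by age, with batch in color and the mean of each age as a black line. Psmb5 lies between 63.3 and 76.7 at P5 and P7 and between 86.8 and 104 from P10 on, Psmb6 and Psmc6 keep within 96.9 to 122.8 and 67.1 to 81.6, and Psme1 is lower in every library from P7 on than in any P5 library.

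Among the 6 ATPases of the cap, which unfold substrate and open the core, 5 were higher at P15, with a median of 0.31 (0.19 with library totals). Psmc5 and Psmc3 changed most of all core and cap genes. At P5, Psmc5 stood at 102, 94.02 and 99.1 CPM in batch A, and the batch B values were 123 and 118 CPM. At P7 Psmc5 read 123, 119 and 104 CPM, at P10 137, 149.9 and 157, at P15 155, 153 and 141, at P21 159.9, 171 and 161 and at P28 179, 189 and 171. All libraries from P10 on lay above all P5 and P7 libraries, and the mean was highest at P28, where the lowest library fell beside the highest of P21. The change to P15 was 0.61 ± 0.07 (adjusted p = 1.56e-08, edgeR) and that to P28 was 0.87 ± 0.07 (adjusted p = 1.57e-11, edgeR). Psmc3 rose by 0.59 ± 0.06 to P15, and Psmc2 (0.37), Psmc1 (0.26) and Psmc4 (0.20) by less. At P5 itself Psmc5 was 0.29 and Psmc3 0.24 higher in batch B than in batch A (log2), both past the threshold.

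Psmc6, a neighbor of these ATPases in the same hexamer, was not called. At P5, Psmc6 stood at 76.3, 81.5 and 79.6 CPM in batch A, and the batch B values were 81.6 and 80.01 CPM. At P7 Psmc6 read 72.4, 67.1 and 68.9 CPM, at P10 80.004, 73.8 and 80.3, at P15 78.6, 77.5 and 72.4, at P21 81.3, 80.4 and 71.8 and at P28 75.5, 75.7 and 73.3. All P7 and all P28 libraries lay below all P5 libraries, and the other ages overlapped P5. The change to P15 was -0.05 with a 95% interval from -0.17 to 0.06 (adjusted p = 0.416, edgeR), and the intervals of Psmc5 (0.47 to 0.74) and Psmc6 did not overlap. The difference between these subunits was not tested. With library totals Psmc6 was called lower at P15.

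Of the 11 other cap subunits, which hold ubiquitin receptors, scaffolds and the deubiquitinase Psmd14, 5 were higher at P15 and none lower, with a median of 0.12 that was -0.01 with library totals. Psmd4, a ubiquitin receptor, led them. At P5, Psmd4 stood at 102, 96.3 and 103 CPM in batch A, and the batch B values were 120.5 and 105 CPM. At P7 Psmd4 read 109, 105 and 100.4 CPM, at P10 116, 116 and 130.0, at P15 125, 122 and 108, at P21 121, 122 and 124 and at P28 128, 128 and 125. The lowest P15 library fell inside the P5 range of batch B and the other two lay above all of P5. Its change was 0.24 ± 0.06 (adjusted p = 0.00196, edgeR). Psmd12 (0.23), Psmd11 (0.19), Psmd6 (0.18) and Psmd3 (0.14) were also called, and Psmd14 (0.12), Psmd8 (0.08), Psmd13 (0.06), Psmd2 (0.05) and Psmd1 (-0.14) were not. Psmd7, the partner of Psmd14 in the cap, changed least. At P5, Psmd7 stood at 95.1, 95.8 and 99.5 CPM in batch A, and the batch B values were 115 and 105 CPM. At P7 Psmd7 read 99.7, 100.1 and 90.8 CPM, at P10 103, 100.3 and 112, at P15 99.4, 97.8 and 95.5, at P21 109, 110.2 and 106 and at P28 112, 116 and 107. P5 and P15 overlapped, with a change of 0.01 ± 0.06 (adjusted p = 0.874, edgeR).

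The activators moved in different directions. Psme1 and Psme2, which together form the PA28 alpha-beta ring known from antigen processing, were lower at P15, Psme4 (PA200) was lower, and Psme3 (PA28 gamma) was higher. At P5, Psme1 stood at 44.4, 45.4 and 47.5 CPM in batch A, and the batch B values were 56.8 and 47.7 CPM. At P7 Psme1 read 35.6, 42.2 and 34.7 CPM, at P10 29.5, 24.2 and 32.03, at P15 23.5, 24.2 and 20.6, at P21 26.1, 25.3 and 25.5 and at P28 31.2, 33.8 and 30.03. Every library from P7 on lay below every P5 library, and P15 was lowest. The change from P5 to P15 was -1.01 ± 0.10 (adjusted p = 1.57e-09, edgeR), the largest of any tested member that passed the threshold in this comparison, and it was past the threshold under all 31 alternatives (-1.13 to -0.78). At P28 Psme1 stood 0.53 ± 0.09 below P5 (adjusted p = 1.87e-05, edgeR), and all 3 P28 libraries lay above those of P15.

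Psme1 and Psme2 are neighbors on chromosome 14, with 5911 bases between them and opposite strands (Psme1 at chr14:55578123-55581529, plus strand, and Psme2 at chr14:55587441-55591113, minus strand, mm10). At P5, Psme2 stood at 11.3, 12.1 and 14.3 CPM in batch A, and the batch B values were 15.5 and 13.3 CPM. At P7 Psme2 read 8.96, 12.8 and 10.3 CPM, at P10 9.28, 5.60 and 9.81, at P15 8.17, 7.998 and 8.68, at P21 8.53, 10.05 and 9.11 and at P28 12.1, 12.95 and 11.5. All P10, P15 and P21 libraries lay below all P5 libraries, while P28 overlapped P5. The change was -0.60 ± 0.16 to P15 (adjusted p = 0.00202, edgeR) and -0.05 ± 0.16 to P28 (adjusted p = 0.804, edgeR). Psme2 has an annotated near-copy, Psme2b, which was listed with 0 to 6 counts a library, so reads of the pair could have been split or dropped and the level of Psme2 is uncertain.

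Psme3, which forms the nuclear PA28 gamma ring, rose. At P5, Psme3 stood at 98.6, 96.6 and 108 CPM in batch A, and the batch B values were 120.2 and 113 CPM. At P7 Psme3 read 120.1, 111 and 104 CPM, at P10 128, 129 and 130.2, at P15 130.4, 125 and 122, at P21 129.7, 132 and 127 and at P28 127, 136 and 136. All libraries from P10 on lay above all P5 libraries and above those of P7. The change to P15 was 0.32 ± 0.06 (adjusted p = 3.66e-05, edgeR) and that to P28 0.40 ± 0.06 (adjusted p = 1.37e-06, edgeR). Psme4, a large single-chain activator, fell. At P5, Psme4 stood at 50.1, 47.6 and 44.96 CPM in batch A, and the batch B values were 42.5 and 57.2 CPM. At P7 Psme4 read 49.5, 48.1 and 55.9 CPM, at P10 36.5, 41.3 and 36.1, at P15 33.95, 41.4 and 44.2, at P21 27.8, 28.9 and 25.1 and at P28 25.5, 21.2 and 20.5. P5 and P15 overlapped, while all P21 and P28 libraries lay below all earlier ones. Its change to P15 was -0.25 ± 0.11, just past the threshold (adjusted p = 0.0486, edgeR), and that to P28 was -1.08 ± 0.12 (adjusted p = 3.24e-08, edgeR). The P15 call of Psme4 was lost without P15 replicate 1 (-0.17, adjusted p = 0.20), P15 replicate 2 (-0.29, 0.0517), P5 replicate 1 of batch A (-0.22, 0.138), P5 replicate 2 of batch A (-0.26, 0.09) or P7 replicate 1 (-0.26, 0.0561).

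Psmf1 encodes PI31, which binds the core and was named as an inhibitor. At P5, Psmf1 stood at 35.04, 34.02 and 34.9 CPM in batch A, and the batch B values were 38.6 and 34.7 CPM. At P7 Psmf1 read 34.5, 34.05 and 33.6 CPM, at P10 37.9, 35.8 and 37.02, at P15 37.6, 36.7 and 38.2, at P21 35.6, 37.5 and 33.1 and at P28 37.4, 41.1 and 35.1. P5 overlapped every other age, and the change to P15 was 0.11 ± 0.07 (adjusted p = 0.141, edgeR). Psmf1 was also among the 8 members not called over the 6 ages.

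The inducible catalytic subunits were at low levels throughout. Psmb10 was the 1 of them well above the floor of 3 counts. At P5, Psmb10 stood at 12.1, 13.4 and 14.6 CPM in batch A, and the batch B values were 14.9 and 12.5 CPM. At P7 Psmb10 read 13.98, 15.98 and 12.4 CPM, at P10 18.9, 15.7 and 17.4, at P15 15.88, 14.5 and 14.7, at P21 10.1, 10.7 and 9.68 and at P28 13.1, 13.6 and 12.6. P15 overlapped P5, and the P21 libraries lay below all others. Per kb, Psmb10 stood at 9.38 ± 0.93% of its constitutive counterpart Psmb7 at P5 (n = 5), 8.72 ± 0.44% at P15, 6.62 ± 0.191% at P21 and 8.0 ± 0.25% at P28 (n = 3 each). From P15 to P21 Psmb10 changed by -0.56 ± 0.11 (adjusted p = 0.000504, edgeR), a step that crosses from batch A to batch C.

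Psmb8 had 3, 6 and 3 counts in the P5 libraries of batch A and 5 and 6 in those of batch B. At P7 Psmb8 had 4, 18 and 14 counts, at P10 9, 3 and 3, at P15 3, 14 and 8, at P21 10, 9 and 8 and at P28 9, 5 and 8. No age stood apart, and per kb Psmb8 was between 0.167% (P10) and 0.406% (P7) of Psmb5. Psmb9 had 8, 11 and 14 counts in the P5 libraries of batch A and 9 and 9 in those of batch B. At P7 Psmb9 had 8, 6 and 17 counts, at P10 7, 3 and 4, at P15 12, 6 and 5, at P21 4, 14 and 5 and at P28 2, 2 and 5. On the CPM scale the P28 libraries lay below all P5 libraries, with 9 counts in all against 51 at P5, a ratio of 0.301 per scaled library total (exact 95% interval 0.13 to 0.617, counting error only). Psmb9 was called lower for P28 against P5 (adjusted p = 0.00724, edgeR). That call was lost with the spectrin covariate (-1.27, adjusted p = 0.592, edgeR), and Psmb9 was not called over the 6 ages (adjusted p = 0.103, edgeR). Of its 1352 exon bases, 212 overlap the opposite-strand gene Tap1. The strand setting is not given in the sources used here, and at these counts it bears on the value.

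Other genes of antigen processing did not follow 1 direction. Of 10 tested genes of an interferon-responsive list, 3 were higher at P15 (among them Irf1 1.23 and B2m 0.47, log2) and 4 lower (Tap1 -1.42, Tapbp -1.30, H2-D1 -0.68 and H2-K1 -0.58), with 63.4% of all genes called. Tap1 stood at 4.26 ± 0.53 CPM at P5 (n = 5) and 1.58 ± 0.568 at P15 (n = 3), and Tapbp at 16.9 ± 0.524 and 6.86 ± 0.694. All 8 endothelial markers had counts in every library, and 5 were called lower and 3 higher at P15. Their median log2 change from P5 was -1.34 to P15 and -2.53 to P28. Their summed level was 54.5 to 84.0 CPM at P5, 43.7 to 60.9 at P15 and 33.6 to 34.1 at P28. Egfl7 alone made up 22.1 to 25.9 CPM of that sum at P5 and 26.7 to 34.8 at P15. The microglial sum was 35.6 to 42.2 CPM at P5 and 44.7 to 61.8 at P15. The part of endothelial or microglial RNA in the levels of Psme1 and Psme2 was not tested.

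Of the 7 assembly chaperones, which help the rings and the cap base to form, 1 was lower at P15 and none higher, with a median of -0.12. That gene was Psmg1, which pairs with Psmg2 on the alpha ring, with a change of -0.26 ± 0.09 (adjusted p = 0.0179, edgeR). At P5, Psmg2 stood at 18.2, 15.7 and 18.6 CPM in batch A, and the batch B values were 18.8 and 16.5 CPM. At P7 Psmg2 read 17.6, 17.04 and 15.7 CPM, at P10 16.7, 18.9 and 21.7, at P15 17.3, 16.2 and 18.3, at P21 18.8, 19.6 and 17.6 and at P28 18.9, 21.8 and 18.4. P5 overlapped every other age, and the change was -0.02 ± 0.10 (adjusted p = 0.862, edgeR). Psmg4 had the largest change of the class by size but was not called. At P5, Psmg4 stood at 7.998, 6.71 and 8.56 CPM in batch A, and the batch B values were 8.65 and 5.77 CPM. At P7 Psmg4 read 7.06, 5.73 and 6.39 CPM, at P10 6.27, 6.80 and 8.31, at P15 5.92, 6.24 and 6.53, at P21 6.98, 8.02 and 7.23 and at P28 8.06, 8.97 and 8.70. The P5 and P15 libraries overlapped, with a change of -0.32 ± 0.15 (adjusted p = 0.0741, edgeR). Psmg3 (-0.16), Psmd10 (-0.12), Psmd9 (0.08) and Psmd5 (0.13) were not called.

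Over the whole span, P28 against P5, 9 of 14 tested constitutive core genes and 13 of 17 cap genes were called higher, with the ATPases highest on median (0.45). Core and cap genes were 22 of the 26 members called higher, and also most of the 46 members tested. This comparison shares its P5 libraries with the one before. The counts were 26 higher and 4 lower of 46 (Psma3, Psmb9, Psme1 and Psme4), beside 71.6% of all genes called (35.2% higher and 36.4% lower). By class, 3 of 7 alpha genes were higher and Psma3 lower (-0.23), 6 of 7 beta genes higher, 5 of 6 ATPases higher, 8 of 11 other cap genes higher, and Psmd5, Psmd9 and Psmd10, chaperones of the cap base, higher (0.41, 0.23 and 0.28). Psmb6 (0.07) and Psmc6 (-0.08) again were not called. Psmd14, the deubiquitinase, rose by 0.38 ± 0.07 (adjusted p = 1.19e-05, edgeR) after 0.12 at P15. All P28 libraries are in batch C and none of P5, so age and batch cannot be told apart here. With library totals 13 members were higher and 7 lower, with 40.9% instead of 49.2% of all called genes higher. With the spectrin covariate 7 were higher (Psmb1, Psmb5, Psmc2, Psmc3, Psmc5, Psmd4 and Psmd5) and Psme4 lower. The share of all genes called in that fit is not given here either.

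Among the steps from 1 age to the next, the most members were called from P7 to P10. From P5 to P7, both in batch B, 4 members were lower and none higher (11.0% of all genes called, 6.15% higher and 4.89% lower): Psme1 (-0.48 ± 0.10, adjusted p = 0.00257, edgeR), Psmg1 (-0.33), Psmc6 (-0.22) and Psmd7 (-0.19). Psme1 was thus lower at P7 than at P5 in every library. The median over the 46 members was -0.11, against 0.01 for all genes. The call of Psmc6 was lost without P5 replicate 1 of batch B (adjusted p = 0.19, edgeR), P5 replicate 3 of batch B (0.0822), P7 replicate 2 (0.0942) or P7 replicate 3 (0.0528), and that of Psmd7 under 18 of 30 alternatives. Without P5 replicate 1 of batch B no member was called, and Psme1 had a change of -0.35 (adjusted p = 0.127, edgeR). Without P7 replicate 3, 1 member was called. With library totals 29 members were lower and 18% instead of 55.7% of all called genes were higher.

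From P7 to P10, 31 members were higher and none lower (42.8% of all genes called, 22.5% higher and 20.3% lower). All 14 constitutive core genes, 14 of 17 cap genes, Psme3, Psmd5 and Psmd9 made up that count, and the largest change was that of Psmc5 (0.65). This step crosses from batch B to batch A and rests on the batch term, which was estimated from the P5 libraries. Without P5 replicate 1 of batch B, 20 members were higher, and without P5 replicate 3 of batch B or P10 replicate 2, 1 was lower. The call of Psmb6 (0.25, adjusted p = 0.0354, edgeR) was lost without P10 replicate 3 (0.0935), P5 replicate 1 of batch A (0.0567), P5 replicate 2 of batch A (0.097), P5 replicate 1 of batch B (0.295) or P7 replicate 3 (0.0906). At P5, 8 members were higher in batch B than in batch A and none lower (10.1% of all genes called, 6.65% higher and 3.42% lower): Psmc1, Psmc3, Psmc5, Psmd1, Psmd2, Psmd12, Psmd13 and Psme3. That count fell to 1 when P5 replicate 1 of batch B was left out, to 4 when P5 replicate 3 of that batch was, to 3 when P5 replicate 1 or 2 of batch A was, and to 5 without P15 replicate 2, P21 replicate 1, P21 replicate 2 or P28 replicate 1. A comparison of P10 with P5 inside batch A was therefore added after the data had been seen. It called 28 members higher and 5 lower (61.4% of all genes called, 30.8% higher and 30.6% lower), the latter Psme1, Psme2, Psme4, Psmg1 and Psmg3. Fitted to the batch A libraries of these ages alone, it called 29 higher and 4 lower. Without P5 replicate 1 of batch A or P10 replicate 3, 3 members were lower. With library totals 14 were higher and 7 lower, and 37.6% instead of 50.1% of all called genes were higher.

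From P10 to P15, inside batch A, no member passed the threshold (edgeR, 4.36% of all genes called, 1.84% higher and 2.52% lower), 8 had an unadjusted p below 0.05, and DESeq2 called 2 lower. Closest were Psma3 (-0.19, adjusted p = 0.0526, edgeR) and Psme1 (-0.33, adjusted p = 0.0538, edgeR). From P15 to P21 3 members were lower, Psmb10, Psme4 (-0.55 ± 0.11, adjusted p = 0.00102, edgeR) and Psmd8 (-0.18), and 2 higher, Psmd14 (0.19) and Psmd7 (0.15), with 28.8% of all genes called (14.0% higher and 14.8% lower). This step coincides with the change to batch C. Psme4 and Psmb10 kept their call under all 30 alternatives, while that of Psmd7 was lost under 20 of 30. With P15 replicate 2, P15 replicate 3, P21 replicate 1 or P21 replicate 2 left out, no member was called higher, and without P15 replicate 3, 5 were lower. From P21 to P28, inside batch C, no member passed the threshold (edgeR, 0.254% of all genes called, 0.0650% higher and 0.189% lower), 9 had an unadjusted p below 0.05 and DESeq2 called none.

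**Figure D4:**
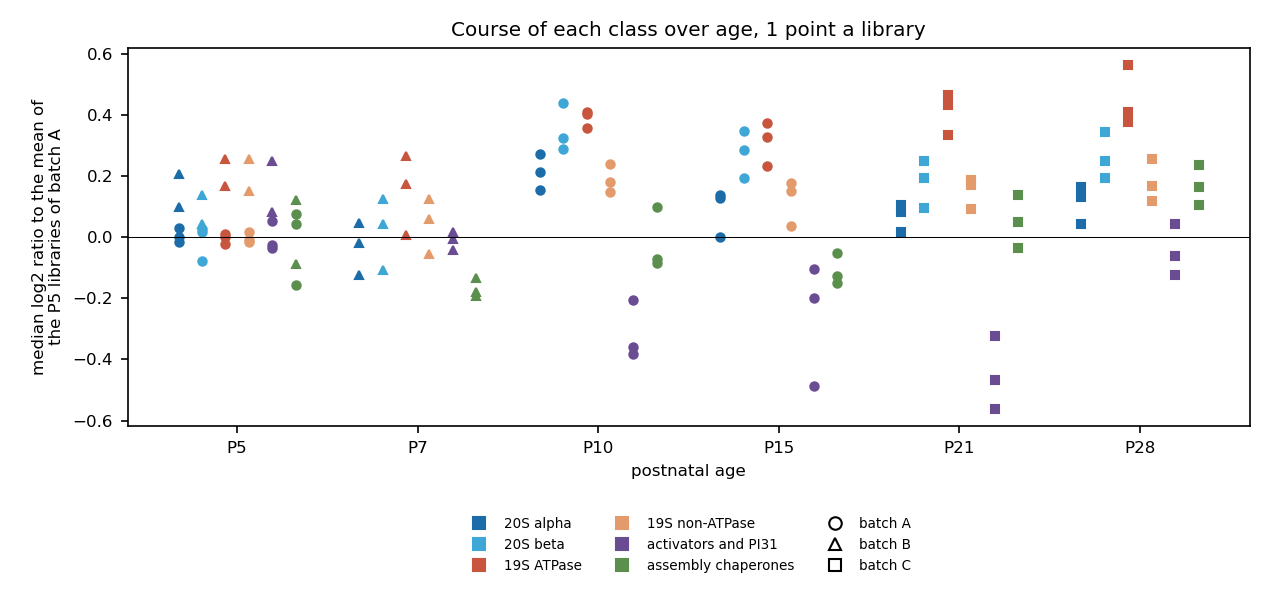
Median over the tested members of a class of the log2 ratio to the mean of the P5 libraries of batch A, 1 point a library, with class in color and batch by symbol. The ATPases lie between 0.23 and 0.56 from P10 on and the activators between -0.56 and 0.04; the P5 libraries of batch B lie above those of batch A for 5 of 6 classes, all but the chaperones. On library totals the fitted medians of the alpha and other cap genes turn below 0 at P15.

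Tested over the 6 ages, 38 of 46 members differed (79.7% of all genes). Their spans were narrow: the highest age mean was a median of 1.24-fold above the lowest, against 1.68-fold for all tested genes. All tested genes were not matched to the members by level, and low counts can widen such a span. A span of at least 2-fold was reached by 3 of 46 members (6.52%; Psme4, Psme1 and Psmb9) and by 36.0% of all genes (with 0.1 CPM added to each mean). Among members with a mean above 1 CPM, Psme4 had a span of 2.28-fold from P7 to P28 and Psme1 one of 2.12-fold from P5 to P15. Psmd6 had the narrowest, 1.07-fold. In the plot of class medians the ATPases and beta genes lay above the P5 mean of batch A in every library from P10 on, and both overlapped the higher P5 library of batch B.

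Genes that work with the proteasome but fall outside the symbol rule were taken from a list of 29, all tested. At P15, 12 were higher and 3 lower than at P5, and at P28 15 and 5, beside the 63.4% and 71.6% of all genes called. Nfe2l1, the transcription factor NRF1 known to drive proteasome genes, rose from 156.2 ± 10.8 CPM at P5 (n = 5) to 208.5 ± 4.15 at P15 and 231.2 ± 5.11 at P28 (n = 3 each), a change of 0.46 ± 0.07 to P15 (adjusted p = 4.54e-06, edgeR). Ddi2, the protease that activates NRF1, had the largest rise, from 31.2 ± 2.89 to 56.7 ± 1.4 and 97.2 ± 2.07 CPM (0.91 ± 0.08 to P15, adjusted p = 3.11e-10, edgeR). Uchl5, a deubiquitinase of the cap, and Zfand5, a proteasome-binding zinc finger protein, rose by 0.49 each.

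Nfe2l2, the stress-responsive relative NRF2, was lower at 1.81 ± 0.849 CPM against 3.26 ± 0.797 at P5 (-1.05 ± 0.27, adjusted p = 0.0017, edgeR), with overlapping libraries. Uba1, the main ubiquitin-activating enzyme, fell by 0.33 and Ubqln2, a shuttle for ubiquitinated proteins, by 0.18 on the log2 scale. Pomp, which chaperones core assembly, rose by 0.15 ± 0.06 (adjusted p = 0.0445, edgeR). Sem1, a small cap subunit (0.04), and Adrm1, a ubiquitin receptor of the cap (0.13, adjusted p = 0.0655, edgeR), were not called at P15. With library totals 8 of the 29 were higher and 10 lower at P15.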

How the data were processed

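Ribosome-bound, poly-adenylated RNA was measured in 20 libraries. The deposited table holds raw counts per gene, with no normalization. STAR 2.7.5b, SAMtools 1.10, featureCounts and build mm10 are named in the submitters' processing notes, without an annotation, a strand setting or a rule for multimapping reads, which are not given in the sources used. Psmb5, Psmb6 and Psmb7 have annotated pseudogenes and Psmb7 shares 405 of 1160 exon bases with the opposite-strand Nek6, so their counts are uncertain to that extent. Genes on the same strand overlap exons of Psmg3 (Gm26938, 237 of 883 bases), Psmd1 (Gm21972, 301 of 3112) and Psmb5 (Mir686, 109 of 899). Reads there could have been shared or dropped under any strand setting.

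Counts were fitted with edgeR 4.0.16 (R 4.3.3): TMM factors, the default filter by age, robust quasi-likelihood F tests, a mean per age and a term for batch B against A (13 residual degrees of freedom), adjusted over 15373 genes at 0.05. Batch C has no term. The batch term makes changes from P5 to P10 or later draw on batch A at P5, and those to P7 on batch B. P5 means are over all 5 libraries. Exon lengths came from GENCODE. Members, lists and the rule for named genes (largest and smallest change per class, catalytic subunits, activators, changes of at least 1 on the log2 scale; outside the members, 5 preset genes and the 3 largest rises and falls) were chosen with earlier results of these data known. The value of 1 gene of the interferon-responsive list is not reported here. The procedure was also run on simulated counts with planted changes at P15 and no other age or batch difference. These counts were simpler than the data, and no result here rests on them. Alternatives were other scalings, filters, DESeq2 1.42.0, limma-voom (limma 3.58.1), no batch term, a replicate block, a spectrin covariate and leaving out libraries.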

Additional observations from a re-analysis of the deposited data

Results flagged for a closer look

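Of 26 sets of 5 P5 values tested for a library far from the others (19 named members and 7 class sums), 2 held one. Chance alone flags about 1 in 20 separate sets drawn from 1 population. These sets pooled batches A and B, and the class sums include the named members, so that rate does not carry over. Both flagged values came from P5 replicate 1 of batch B and were the highest of their set. Psme1 stood at 56.81 CPM there, with 47.7 in the next P5 library, and Psmf1 at 38.56 CPM, with 35.0 in the next. From P5 to P7, 4 members were called lower with that library and none without it.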

How the results depend on the processing

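The direction of the named changes held in all of 1329 recomputed values, and 91 of these lost the call. By total counts in place of TMM factors, the members called were 29 lower from P5 to P7, 9 higher and 10 lower from P5 to P15, 13 and 7 from P5 to P28, 14 higher from P5 to P10, 1 higher and 7 lower from P15 to P21, and 2 between batches. With the spectrin covariate they were 0 lower from P5 to P7, 4 higher and 1 lower from P5 to P15, 7 and 1 from P5 to P28, 7 and 0 from P5 to P10, 1 higher from P15 to P21 and 0 between batches. Without a filter on low counts they were 1 lower from P5 to P7, 1 lower from P10 to P15, 1 higher from P15 to P21 and 2 lower from P5 to P15. A stricter filter, or leaving out the P5 libraries of batch B, gave 1 lower from P10 to P15, and DESeq2 gave 2 there. Without a batch term 2 were lower from P7 to P10 and 0 higher from P15 to P21. Fits to the 2 ages alone gave 1 lower from P5 to P7 and 1 higher from P21 to P28. No comparison with P7 could be fitted without the P5 libraries of batch B. The cause of these shifts was not tested, and the share of all genes called with the spectrin covariate is not given here.

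Leaving out 1 library at a time gave 0 to 5 lower from P5 to P7, 20 to 32 higher and 0 to 1 lower from P7 to P10, 0 to 1 lower from P10 to P15, 0 to 2 higher and 2 to 5 lower from P15 to P21, 16 to 20 higher and 3 to 4 lower from P5 to P15, 18 to 27 higher and 4 lower from P5 to P28, 21 to 28 higher and 3 to 5 lower from P5 to P10, 31 to 38 over the 6 ages and 1 to 9 between batches. The lowest counts came without P5 replicate 1 of batch B for P5 to P7, P7 to P10 and the batches.

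Same-numbered libraries of different ages, or of different batches at P5, did not deviate together, so the number is not read as a pairing. For same-numbered pairs the correlation of deviations was -0.32 to 0.294, with a median of -0.0205, and over 0.1 in 13 of 57 pairs. For differently numbered pairs it was -0.309 to 0.39, with a median of 0.0288, and over 0.1 in 30 of 114 pairs. Deviations were taken from the mean of each age and, at P5, of each batch. The pairs between the P5 batches were not examined on their own, so the check does not settle whether a shared number there means the same sample. With the replicate block 1 member was higher from P15 to P21, 19 higher and 3 lower from P5 to P15, and 26 and 4 from P5 to P28.

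Depth limits Psma8, Psmb8, Psmb9 and Psmb11, which had at most 18 counts in a library.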
